A study of Mus musculus with 6 samples.

Results

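Genes of fatty acid uptake and oxidation were examined in quadriceps femoris, a thigh muscle, of Prr14-KO mice and Prr14-WT controls. PRR14 tethers heterochromatin to the nuclear lamina, and the series concerns its part in myofibre identity. The group holds 32 genes chosen by symbol from a list of pathway members, out of 22036 genes in the count table, and all 32 were found there. They fall into 7 genes of uptake and activation, 3 of the carnitine shuttle, 15 of beta-oxidation with electron transfer and Ucp3, and 7 regulators. Total RNA was read as full-length nanopore cDNA in 3 libraries per genotype, called WT replicates 1 to 3 (titles W3, W4 and W8) and KO replicates 1 to 3 (titles K4, K5 and K7). The age, sex and strain of the mice, the knockout allele and whether each library is 1 animal were not given in the sources used here. All p-values therefore rest on the spread among libraries alone, which may be technical.

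Muscle fibres take up long-chain fatty acids that lipoprotein lipase releases in the capillaries, bind them in the cytosol and link them to coenzyme A. The carnitine shuttle then carries the acyl chains across the mitochondrial membranes, and the matrix enzymes of beta-oxidation shorten them in repeated cycles of dehydrogenation, hydration, dehydrogenation and thiolysis. Oxidative fibres rely on this pathway more than fast glycolytic ones, and the PPAR and ERR nuclear receptors with the PGC-1 coactivators are its known transcriptional regulators.

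The libraries held 1436099 to 1712975 counts in listed genes. Levels are given in CPM, counts scaled to library size by TMM, single libraries follow in the order of replicates 1 to 3, errors are SDs over 3 libraries, and log2 fold changes are KO over WT from edgeR's quasi-likelihood test with Benjamini-Hochberg adjustment over all tested genes. Genes that define skeletal muscle were abundant in every library, with Ckm at 46486 to 71400 CPM. The fast-fibre myosin Myh4 fell, from 21073 ± 2343 CPM in WT to 8214 ± 1137 in KO (log2 fold change -1.36, edgeR adjusted p = 6.73e-06), as did Acta1, the skeletal actin (-0.66, edgeR adjusted p = 0.00271). Their part in the values of the fatty acid genes was not tested. Prr14 itself had 9, 11 and 12 counts in the WT libraries and 4, 10 and 3 in the KO libraries (log2 fold change -1.10, edgeR adjusted p = 0.196). The library labelled KO replicate 2 thus held as many counts as WT libraries, and at 6.25 CPM it lay just under the lowest of them at 6.57 CPM. Without it the log2 fold change of Prr14 was -1.80 (edgeR adjusted p = 0.0800), and over the fits that left out each library it ran from -1.80 to -0.77. Exons of B130055M24Rik overlap those of Prr14 on the same strand, so some of these counts could come from that gene. The exons that the allele removes were not given in the sources used here. Reads outside the deleted part would check nothing. The summed slow-fibre markers (11 genes) varied more within a genotype than between them, from 81.5 to 756 CPM in WT and from 180.5 to 1814 CPM in KO, with Tnnt1 at 0 in WT replicate 3 and KO replicate 3. The adipocyte markers without Car3, which muscle also expresses, summed to 242 to 1022 CPM in WT and 572 to 823 CPM in KO, and the 10 endothelial markers to 415 to 474 and 443 to 467 CPM. Car3 itself fell (edgeR adjusted p = 0.0204). The brown adipocyte marker Ucp1 was at 0 in all 6 libraries. The 9 macrophage markers summed to 164 to 537 CPM in WT and 202 to 219 CPM in KO. The 5 red blood cell markers summed to 1623 to 4002 and 1401 to 2016 CPM, and the 7 fibroblast markers to 3792 to 5744 and 3708 to 4638 CPM. All 7 tested macrophage markers and all 5 red blood cell markers had log2 fold changes below 0, and 0 of them passed. Their part in the values of the fatty acid genes was not tested either. In whole-muscle RNA, fewer cells of a type and less RNA per cell cannot be told apart.

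A pair of beta-oxidation enzymes, Hadh and Acadl, were higher in KO. For most other members the 95% interval in edgeR on TMM scaling excludes a change over 1.5-fold. Of the 32 members 26 had enough counts to be tested. Hadh and Acadl rose, 0 members fell and 24 did not pass, against 2.98% of all 6680 tested genes called higher and 3.28% called lower. The called share of the members, 7.69%, was near the 6.26% of all tested genes called in either direction, so the count of calls does not set the members apart. The median log2 fold change was 0.05 over the 26 tested members and 0.02 over all tested genes, with 15 members above 0 and 11 below (52% and 48% of all tested genes). At an unadjusted p under 0.05, 5 members were higher and 1 was lower in KO, beside 10.7% and 9.28% of all tested genes. For 16 of the 26 the 95% interval of the fold change lay within 1.5-fold in both directions, and for 21 within 2-fold. Of all tested genes 23.8% and 67.1% had intervals that narrow. Among the 16, Acadm and Eci2 had upper bounds of 1.496-fold, just inside the limit. Both passed as higher when library totals replaced TMM (edgeR adjusted p = 0.0105 and 0.0341). Interval width also depends on read depth, for which the members and all tested genes were not matched. The members' libraries did not overlap between genotypes for 8 of the 26 (30.8%), with 7 higher and 1 lower in KO. Beside them, 25.8% of all tested genes did not overlap, 13.5% higher and 12.2% lower in KO. The split by direction was not tested.

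**Figure D1:**
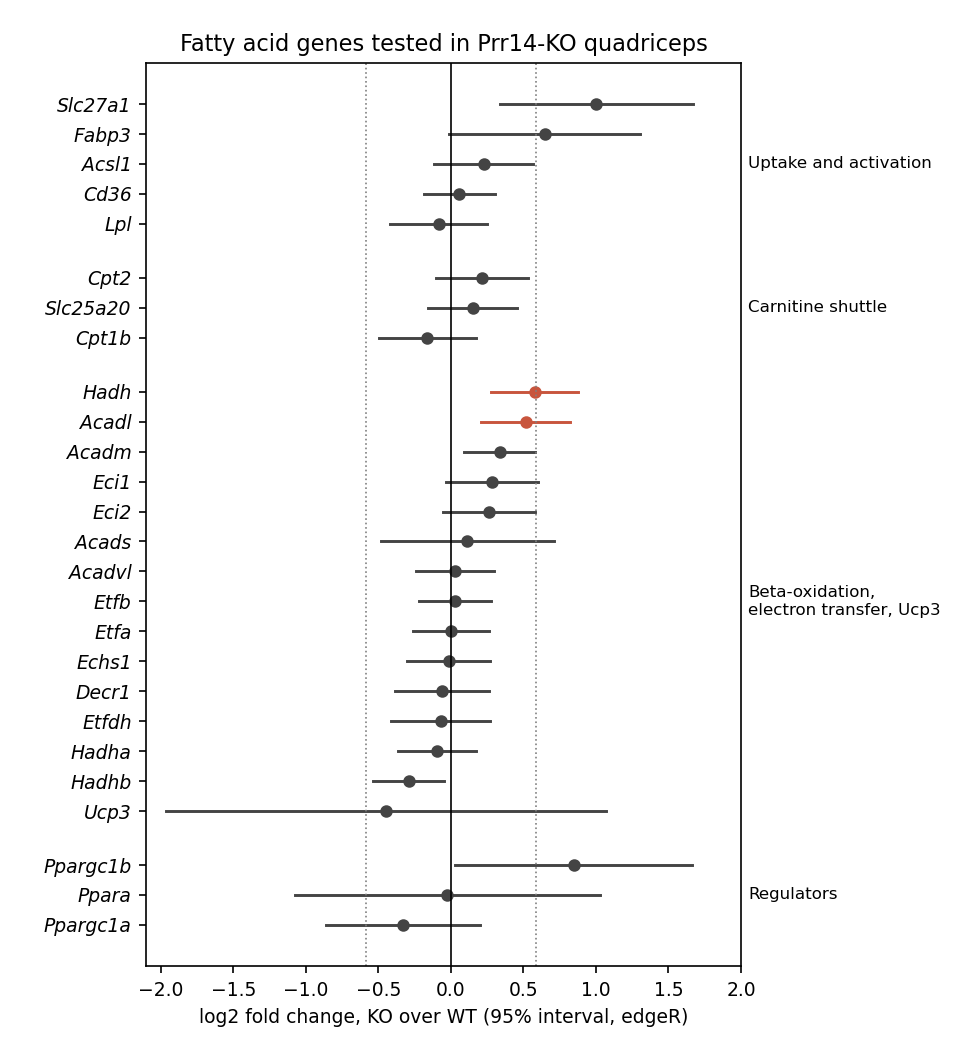
Log2 fold change of KO over WT with its 95% interval (edgeR, 3 libraries per genotype) for the 26 tested members, grouped by step. Red marks an adjusted p under 0.05, and dotted lines mark 1.5-fold either way. Hadh and Acadl lie above 0 and pass, 16 intervals stay between the dotted lines, and that of Ucp3 is the broadest of the 26.

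Hadh and Acadl were the members that rose, and Acadm and Hadhb were the beta-oxidation enzymes nearest to them in size of change, upward and downward. Their promoter windows are shown because they are the start regions of the enzymes whose levels differed most within the step. Hadha and Hadhb share 1 such region: their windows on GRCm38 chromosome 5 overlap by 228 bases, and their RefSeq starts lie 273 bases apart on opposite strands. Each window runs from 250 bases before the RefSeq start to 50 bases after it, 5′ to 3′ on the strand of the gene (RefSeq, GRCm38.p6). The windows are at chr3:131272052-131272351 (Hadh, minus strand), chr1:66863260-66863559 (Acadl, minus strand), chr3:153944594-153944893 (Acadm, minus strand) and chr5:30155003-30155302 (Hadhb, plus strand). Capitals mark matches on either strand to GGGCGG (the GC box bound by Sp1) or AGGTCA (the core element of many nuclear receptors).
Hadh: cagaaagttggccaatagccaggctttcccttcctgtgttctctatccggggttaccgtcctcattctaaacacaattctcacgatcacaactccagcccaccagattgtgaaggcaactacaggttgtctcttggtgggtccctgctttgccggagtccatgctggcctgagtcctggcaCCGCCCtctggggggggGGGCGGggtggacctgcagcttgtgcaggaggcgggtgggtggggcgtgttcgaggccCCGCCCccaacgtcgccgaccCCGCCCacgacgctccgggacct
Acadl: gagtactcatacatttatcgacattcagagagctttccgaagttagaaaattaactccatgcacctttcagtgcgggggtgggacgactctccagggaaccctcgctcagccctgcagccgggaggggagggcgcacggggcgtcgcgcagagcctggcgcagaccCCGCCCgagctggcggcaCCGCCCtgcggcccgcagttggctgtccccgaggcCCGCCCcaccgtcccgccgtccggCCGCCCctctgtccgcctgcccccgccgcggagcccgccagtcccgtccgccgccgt
Acadm: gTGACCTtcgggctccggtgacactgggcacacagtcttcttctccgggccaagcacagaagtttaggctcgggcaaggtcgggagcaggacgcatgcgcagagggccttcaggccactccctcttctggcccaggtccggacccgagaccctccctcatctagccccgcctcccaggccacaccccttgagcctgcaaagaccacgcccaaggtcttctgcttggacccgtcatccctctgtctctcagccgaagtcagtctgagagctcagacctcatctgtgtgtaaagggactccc
Hadhb: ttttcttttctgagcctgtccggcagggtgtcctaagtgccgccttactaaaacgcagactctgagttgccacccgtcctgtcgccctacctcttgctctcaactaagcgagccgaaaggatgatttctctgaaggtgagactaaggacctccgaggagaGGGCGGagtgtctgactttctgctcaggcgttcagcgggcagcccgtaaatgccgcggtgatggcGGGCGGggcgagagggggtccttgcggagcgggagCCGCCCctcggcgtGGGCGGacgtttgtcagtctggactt
The windows of Hadh, Acadl and Hadhb held 4 GC boxes each and no AGGTCA, and that of Acadm held 1 AGGTCA and no GC box. A RefSeq window was found for 27 of the 32 members, 34 windows in all because some genes have several starts. Those without one in the table are Angptl4, Cpt1b, Decr1, Lpl and Ppargc1b. GGGCGG was in 22 of these 34 (64.7%), from 20 of the 27 genes, and in 35.7% of all 32851 windows of that length. The member windows and all windows were not matched for GC content or kind of gene. The 4 windows shown are 60.7 to 70.3% GC. AGGTCA was in 5 of the 34 (14.7%, against 16.3% of all windows), those of Acadm, Acadvl, Cd36, Echs1 and Ucp3. The ERR element TCAAGGTCA and the direct repeat of AGGTCA with 1 base between the copies (DR1), both of which contain that element, were in 0 member windows (0.423% and 0.0396% of all). The MEF2 core (CTA and TAG with 4 bases between) was in 1, a start of Esrrg (3.69% of all). A match is a stretch of letters only, and its absence from this window says nothing of sites elsewhere.

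In uptake and activation, 0 of the 5 tested genes passed in edgeR, with 1, Slc27a1, at an unadjusted p under 0.05. Cd36, the membrane fatty acid translocase, was at 238 ± 13.5 CPM in WT against 248 ± 9.73 in KO, and the interval of its log2 fold change ran from -0.18 to 0.30. Lpl, the lipoprotein lipase that frees fatty acids from triglyceride, had 461 ± 59.5 and 435 ± 93.9 CPM (log2 fold change -0.08, interval -0.42 to 0.25). Acsl1, which links fatty acids to coenzyme A, had 116 ± 24.9 and 135 ± 4.29 CPM (log2 fold change 0.23, interval -0.11 to 0.57). In the main fit the intervals of these 3 genes exclude a 1.5-fold change in either direction. For Acsl1 the log2 fold change was 0.46 (SE 0.17) with library totals and 0.21 (SE 0.20) with DESeq2, which leave room for a larger change.

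Fabp3, the heart and muscle fatty acid binding protein (GRCm38 chromosome 4, 130308595 to 130315463, plus strand), varied between libraries of 1 genotype as well as between genotypes. It had 1422, 2077 and 1078 CPM in WT against 2231, 2880 and 2051 in KO. The genotypes overlap, because WT replicate 2 lies just above KO replicate 3. Fabp3 differed by 0.65 on the log2 scale (SE 0.27, interval -0.01 to 1.30, edgeR adjusted p = 0.258). The SE fell to 0.15 once the slow-fibre score entered the fit, and the difference was then 0.60 (edgeR adjusted p = 0.0530). Fabp3 passed as higher with no filter on low counts (edgeR adjusted p = 0.0157) and without WT replicate 2 (0.00827, log2 fold change 0.91). Exons of Zcchc17 and Gm10570 overlap it on the other strand, so that their reads could be mixed if the counting ignored strand. Its size sets the summed uptake level, which was 2351 ± 595 CPM in WT against 3228 ± 535 in KO, and 825 ± 88.7 and 841 ± 103 CPM without Fabp3.

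The transporter Slc27a1 (FATP1, GRCm38 chromosome 8, 71568882 to 71587302, plus strand) was low. It had 8, 13 and 9 counts in WT and 21, 25 and 24 in KO, or 5.84, 8.86 and 6.16 CPM against 12.8, 15.6 and 13.7 CPM. Every KO library was above every WT library, and the log2 fold change was 1.00 (SE 0.31, interval 0.34 to 1.67), but it did not pass (edgeR adjusted p = 0.0719). Angptl4, a secreted inhibitor of Lpl, was too low for the test: 6, 3 and 2 counts in WT and 8, 11 and 16 in KO. With no filter Angptl4 differed by 1.42 on the log2 scale (edgeR adjusted p = 0.102). The transporter Slc27a4 had 1 to 4 counts per library in both genotypes, at or near the level of 3 counts, which is 1.72 to 2.19 CPM.

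**Figure D2:**
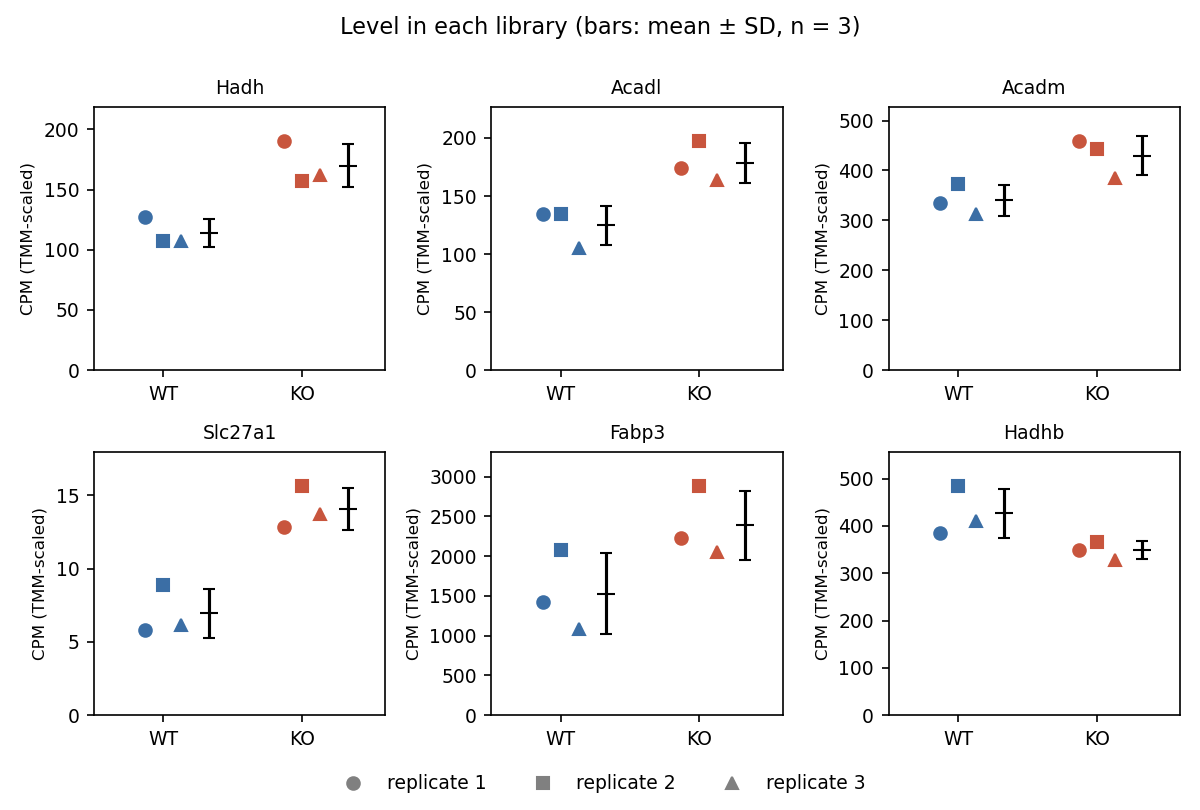
TMM-scaled CPM of 6 members in each library, with mean and SD (n = 3) beside the points and replicates told apart by symbol. For Hadh, Acadl, Acadm and Slc27a1 all KO points lie above all WT points and for Hadhb below them, while Fabp3 overlaps at WT replicate 2.

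None of the 3 carnitine shuttle genes passed in edgeR or in the 13 alternative fits, and 0 had an unadjusted p under 0.05 in edgeR. In the main fit all 3 intervals lay within 1.5-fold. With library totals the log2 fold change was 0.45 (SE 0.16) for Cpt2 and 0.39 (SE 0.15) for Slc25a20. Without KO replicate 1 that of Cpt1b was -0.34 (SE 0.14). These values leave room for a larger change. Cpt1b, the muscle form of the outer-membrane carnitine palmitoyltransferase that commits fatty acids to oxidation, had 125.5, 122.7 and 134.2 CPM in WT against 140.1, 103.7 and 97.96 in KO (log2 fold change -0.16, interval -0.50 to 0.17). The highest and the lowest library were both KO. Cpt2, its partner at the inner membrane, had 59.3 ± 2.39 CPM in WT against 68.7 ± 1.47 in KO, without overlap, and its difference of 0.21 on the log2 scale did not pass (interval -0.11 to 0.53, edgeR adjusted p = 0.480). The carrier Slc25a20, which exchanges acylcarnitine for carnitine, had 85.6 ± 7.88 and 95.1 ± 3.74 CPM (log2 fold change 0.15, interval -0.16 to 0.46). Its libraries only just fail to overlap, at 91.05 CPM in the highest WT library and 91.08 CPM in the lowest KO library.

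Hadh, the matrix 3-hydroxyacyl-CoA dehydrogenase of the second dehydrogenation for shorter chains, was the gene with the smallest p among the members (GRCm38 chromosome 3, 131233419 to 131272101, minus strand). It had 127, 107 and 107 CPM in WT against 190.3, 157 and 162 in KO. No KO library reached down to the WT range. Hadh was 1.49-fold higher in KO (log2 fold change 0.58, SE 0.14, interval 0.28 to 0.88, edgeR adjusted p = 0.0234). Acadl, the long-chain acyl-CoA dehydrogenase of the first step (GRCm38 chromosome 1, 66830839 to 66863277, minus strand), had 134, 134 and 105 CPM in WT against 174, 197 and 164 in KO. Here too the genotypes did not overlap, and the level was 1.43-fold higher in KO (log2 fold change 0.52, SE 0.14, interval 0.21 to 0.82, edgeR adjusted p = 0.0470).

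Both calls stood close to the threshold. Without any 1 library the log2 fold change stayed between 0.49 and 0.63 for Hadh and between 0.40 and 0.57 for Acadl. The call for Acadl was lost in all 6 of these fits (edgeR adjusted p 0.0512 to 0.187) and that for Hadh in 5 of them, the exception being the fit without KO replicate 2 (0.0285). DESeq2 passed neither (adjusted p = 0.0595 for Hadh and 0.127 for Acadl), and limma-voom passed Hadh (0.0331) but not Acadl (0.0592). In the fit that includes the slow-fibre score both passed (edgeR adjusted p = 0.0307 and 0.0398), with log2 fold changes of 0.58 and 0.49. The part of the adipocyte markers in these values was not tested.

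The other acyl-CoA dehydrogenases had smaller log2 fold changes than Hadh and Acadl and did not pass. Acadm, the medium-chain enzyme, had 334, 373 and 313 CPM in WT against 459, 443 and 385 in KO. All KO libraries were above all WT libraries, by 0.34 on the log2 scale (SE 0.11, interval 0.09 to 0.58), and the difference did not pass (edgeR adjusted p = 0.104). Acadvl, the very-long-chain enzyme of the inner membrane, had 265 ± 31.8 and 271 ± 24.1 CPM, a log2 fold change of 0.03 with an interval of -0.24 to 0.30. Acads, the short-chain enzyme, was at 17.7 ± 2.33 and 19.3 ± 6.82 CPM, and its interval of -0.48 to 0.71 was wide. Whether the fold changes of these enzymes differ from each other was not tested.

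The mitochondrial trifunctional protein, which carries out the later steps for long chains, gave no call in either subunit. Hadhb, its beta subunit with the thiolase activity (GRCm38 chromosome 5, 30155248 to 30184593, plus strand), had 386, 484 and 409 CPM in WT against 350.0, 367 and 329 in KO. Every KO library was below every WT library, with a log2 fold change of -0.29 (SE 0.11, interval -0.54 to -0.05) that did not pass (edgeR adjusted p = 0.167). It was the only tested member whose libraries were all lower in KO, and its value with library totals in place of TMM was -0.06. Hadha, the alpha subunit with the hydratase and dehydrogenase activities (chromosome 5, 30118304 to 30155162, minus strand), had 206, 205 and 177 CPM in WT against 179, 194 and 178 in KO, which overlap (log2 fold change -0.10, interval -0.36 to 0.17). The ratio of Hadha to Hadhb counts, which needs no scaling, was 0.464 ± 0.0616 in WT and 0.527 ± 0.0158 in KO, and WT replicate 1 (0.535) lies inside the KO range. The exact two-sided permutation p was 0.3, in a design whose smallest possible p is 0.1.

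Echs1, the short-chain enoyl-CoA hydratase, and the electron transfer genes had intervals within 1.5-fold. Echs1 had 168 ± 10.8 CPM in WT against 166 ± 19.8 in KO (log2 fold change -0.02, interval -0.30 to 0.27). Etfa and Etfb, the subunits of the flavoprotein that takes electrons from the acyl-CoA dehydrogenases, had 311 ± 33.2 and 310 ± 30.3 CPM, and 428 ± 40.3 and 436 ± 47.4 CPM. Their log2 fold changes were 0.00 and 0.03, and the intervals lay between -0.26 and 0.28. Etfdh, which passes these electrons to ubiquinone, had 79.0 ± 8.83 and 75.3 ± 9.35 CPM (log2 fold change -0.07, interval -0.41 to 0.27).

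Among the enzymes for unsaturated chains, the enoyl-CoA isomerases Eci1 and Eci2 had higher means in KO and Decr1, the dienoyl-CoA reductase, a slightly lower one. Eci1 had 82.4, 84.5 and 93.1 CPM in WT against 114, 109 and 92.8 in KO, so KO replicate 3 lay inside the WT range. Eci2 had 92.7, 100.2 and 121 CPM in WT against 134, 117 and 127 in KO, with overlap between WT replicate 3 and KO replicate 2. Their log2 fold changes of 0.28 and 0.26 did not pass (edgeR adjusted p = 0.317 and 0.354). Decr1 ran from 59.1 to 67.1 CPM in WT and from 58.4 to 62.5 CPM in KO (log2 fold change -0.06, interval -0.38 to 0.26).

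Ucp3, the uncoupling protein of the muscle inner membrane that rises with fasting, varied widely within both genotypes. It had 24.1, 46.3 and 30.8 CPM in WT against 21.4, 7.50 and 44.7 in KO. KO replicate 2 lay far below the rest, and the interval of the log2 fold change, from -1.97 to 1.07, allows a change of any direction. Pdk4, a kinase that blocks pyruvate oxidation and another fasting-induced gene, chosen after its values were seen, had 21.9, 59.3 and 34.9 CPM in WT against 34.3, 14.99 and 44.1 in KO, again with WT replicate 2 highest and KO replicate 2 lowest. The member Angptl4 had another order of libraries, with 6, 3 and 2 counts in WT and 8, 11 and 16 in KO. Feeding state at collection was not given in the sources used here, and its part in these values was not tested.

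**Figure D3:**
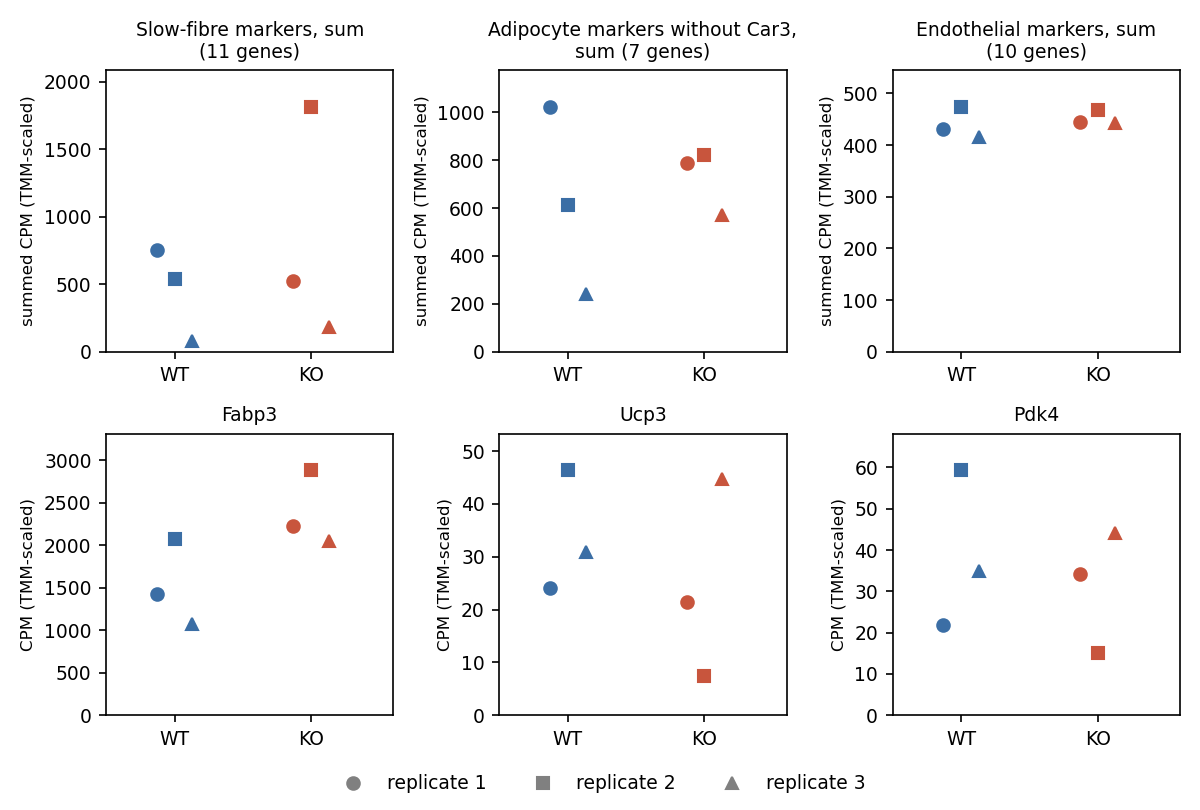
Level in each library (TMM-scaled CPM, replicates by symbol) of the summed slow-fibre, adipocyte and endothelial markers, and of Fabp3, Ucp3 and Pdk4. KO replicate 2 is highest for the slow-fibre markers (1814 CPM) and Fabp3 (2880 CPM) and lowest for Ucp3 (7.50 CPM) and Pdk4 (14.99 CPM), while the endothelial sum stays between 415 and 474 CPM.

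As a share of the counts of the 15 genes of the step, a measure that library scaling does not touch, Hadh made up 4.15 ± 0.558% in WT and 5.87 ± 0.738% in KO, Acadl 4.52 ± 0.475% and 6.13 ± 0.244%, and Acadm 12.3 ± 0.294% and 14.8 ± 0.988%. Hadhb made up 15.4 ± 0.997% and 12.0 ± 0.106%, and Hadha 7.12 ± 0.478% and 6.33 ± 0.151%. These shares are free of overlap between the genotypes, as is that of Decr1 (2.30 ± 0.236% and 2.09 ± 0.0544%), and those of the other 9 genes overlap. The shares restate the same counts and are no second test. Within a library they add up to a fixed whole, so higher shares of some genes lower those of others. In CPM the libraries of Hadha and Decr1 overlap between the genotypes. On that measure 26.7% of the step and 25.8% of all tested genes do not overlap, and no background was computed for shares. The step as a whole summed to 2758 ± 189 CPM in WT against 2905 ± 166 in KO.

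**Figure D4:**
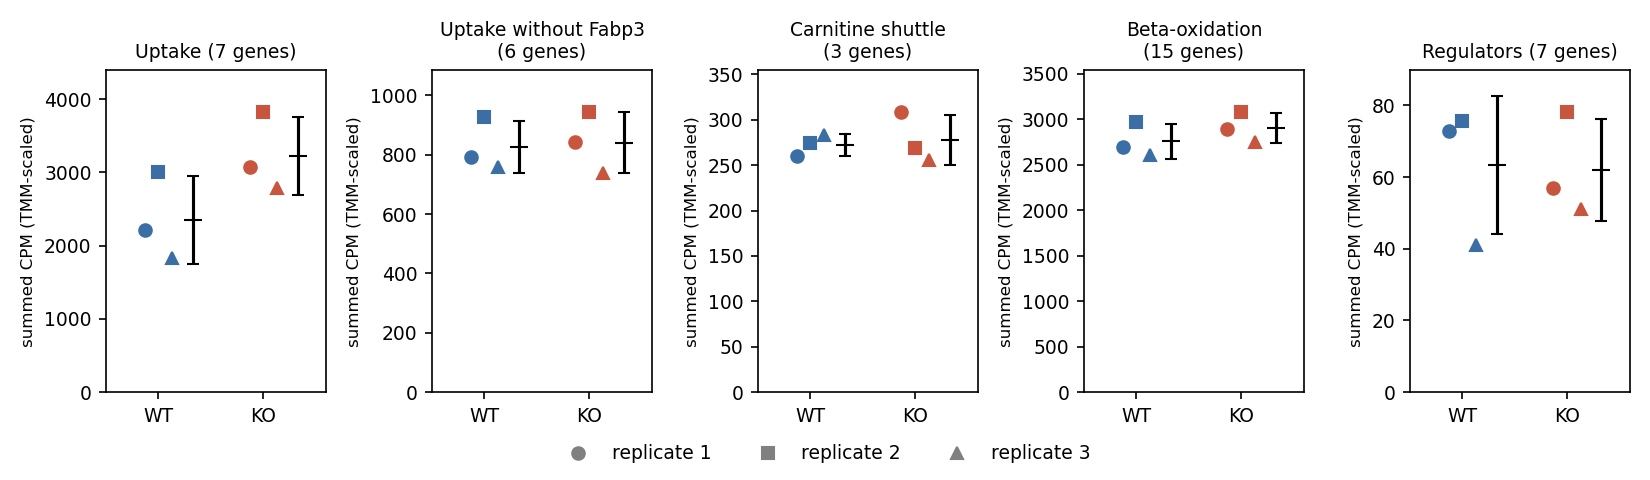
Summed TMM-scaled CPM of the genes of each step in each library, with mean and SD (n = 3). The genotypes overlap in every panel; for uptake WT replicate 2 (3004 CPM) lies above KO replicate 3 (2788 CPM).

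The regulators were read at low depth, and 3 of the 7 could be tested. Ppargc1a (PGC-1 alpha), the coactivator of mitochondrial and fatty acid genes, had 43.0, 44.3 and 22.6 CPM in WT against 26.9, 28.7 and 31.5 in KO. The KO libraries lay close together inside the WT range (log2 fold change -0.33, interval -0.86 to 0.20, edgeR adjusted p = 0.514). Ppargc1b (PGC-1 beta), its relative, had 9, 7 and 5 counts in WT and 14, 18 and 12 in KO. These are 6.57, 4.77 and 3.42 CPM against 8.57, 11.2 and 6.87 CPM, higher in every KO library by a small margin, and the log2 fold change of 0.85 (SE 0.38, interval 0.03 to 1.67) did not pass (edgeR adjusted p = 0.236).

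The nuclear receptors gave few reads. Ppara, the fatty acid sensor PPAR alpha, had 12, 17 and 9 counts in WT and 14, 24 and 5 in KO, and its interval of -1.08 to 1.03 spans 2-fold both ways. Ppard, the delta form that muscle is known for, was below the filter with 8, 12 and 8 counts in WT and 8, 10 and 10 in KO. Esrra (ERR alpha) had 6, 5 and 4 counts in WT and 9, 15 and 6 in KO, and Esrrg (ERR gamma), which is known from slow and oxidative muscle, had 5, 4 and 1 and 4, 12 and 1. With no filter the log2 fold changes of Ppard, Esrra and Esrrg were -0.22, 0.77 and 0.54 (edgeR adjusted p = 0.883, 0.578 and 0.745). The highest counts of Ppara, Esrra and Esrrg all came from KO replicate 2, the library highest in slow-fibre markers, and the part of fibre type in them was not tested. Esrrb had 1, 1 and 0 counts in WT and 0 in each KO library, which is under the level of 3 counts, so no fold is given.

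A wider set of 89 fatty acid genes gave a similar count. Of 65 tested, Cidea rose and Acsl3 and Rxrg fell, and 62 did not pass (4.62% called, beside 6.26% of all tested genes). The median log2 fold change was 0.05, beside 0.02 over all tested genes. By list, calls came from 12 other uptake and activation genes (1 fell) and 17 PPAR targets and regulators (1 rose and 1 fell). The remaining lists gave 0 calls, from 5 tested genes of the carnitine list, 17 of the beta-oxidation list and 14 peroxisomal genes. The carnitine list is broader than its name: its 5 tested genes were Crat, Crot, Acaca, Acacb and Mlycd. The beta-oxidation list also holds genes of other pathways, among them Acad8, Acadsb, Pcca, Pccb, Mut, Mcee and Ucp2. In the peroxisomal list 11 of 14 log2 fold changes were above 0, with a median of 0.23 and 0 calls. Of all tested genes 52% were above 0, and no test was run on the list. At an unadjusted p under 0.05, the 12 that passed were 2 other uptake genes (both lower), 0 carnitine genes, 3 other beta-oxidation genes (2 higher and 1 lower), 3 peroxisomal genes (all higher) and 4 PPAR targets and regulators (2 higher and 2 lower), beside 20% of all tested genes.

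Rxrg encodes RXR gamma, a retinoid X receptor, the partner with which PPARs bind DNA (GRCm38 chromosome 1, 167598384 to 167639623, plus strand). It had 71.5, 62.0 and 71.2 CPM in WT against 33.0, 33.1 and 25.2 in KO. The genotypes were far apart, with a log2 fold change of -1.16 (SE 0.18, edgeR adjusted p = 0.000903), and the call held in all 13 alternative fits. The related Rxra was at 13.0 ± 1.13 and 8.63 ± 2.74 CPM, lower in every KO library, and did not pass (log2 fold change -0.59, edgeR adjusted p = 0.331). Acsl3, a long-chain acyl-CoA synthetase of lipid droplets and the reticulum, had 16.1, 14.99 and 21.9 CPM in WT against 6.73, 7.50 and 8.59 in KO. The difference on the log2 scale was -1.20 (SE 0.30, edgeR adjusted p = 0.0252). The call was lost with DESeq2 (adjusted p = 0.0818) and in 4 of the 6 fits that left a library out, those without WT replicate 3 or any of the KO libraries (edgeR adjusted p 0.0539 to 0.107), and exons of Utp14b lie over the gene on the same strand.

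Cidea, a lipid droplet protein best known from brown fat, had 1, 0 and 2 counts in WT and 17, 14 and 19 in KO. That is 3 counts against 50, a ratio of 14.4 at equal library size with a 95% counting interval of 4.65 to 72.1 (edgeR adjusted p = 0.00104), and the call held in all 13 alternative fits. The fitted log2 fold change, 3.70, depends on these few WT counts: it was 3.12 without WT replicate 2 and 4.54 without WT replicate 3. The brown fat markers Ucp1 and Elovl3 had 0 counts in all libraries and 1 count in KO replicate 2. The white fat markers Adipoq and Cidec did not pass, at 37.2 ± 21.4 and 42.5 ± 12.5 CPM, and 48.8 ± 38.1 and 53.7 ± 14.5 CPM.

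The values of the whole pathway moved with the scaling of the libraries. With library totals instead of TMM the median over all genes moved from 0.02 to 0.25 (log2), and 653 genes were called higher and 148 lower, in place of 199 and 219. The members moved with it: their median was 0.28, 23 of 26 lay above 0, and 6 passed as higher (Hadh, Acadl, Acadm, Slc27a1, Eci1 and Eci2), beside 9.78% of all tested genes called higher and 2.22% called lower. Hadh, Acadl, Acadm and Slc27a1 were above 0 in all 13 alternative fits, as were Fabp3, Acsl1, Cpt2, Slc25a20, Eci1, Eci2 and Ppargc1b. By contrast, Lpl, Cpt1b, Hadha, Echs1, Etfa, Etfdh, Decr1 and Ppara turned from below to above 0 with library totals.

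**Figure D5:**
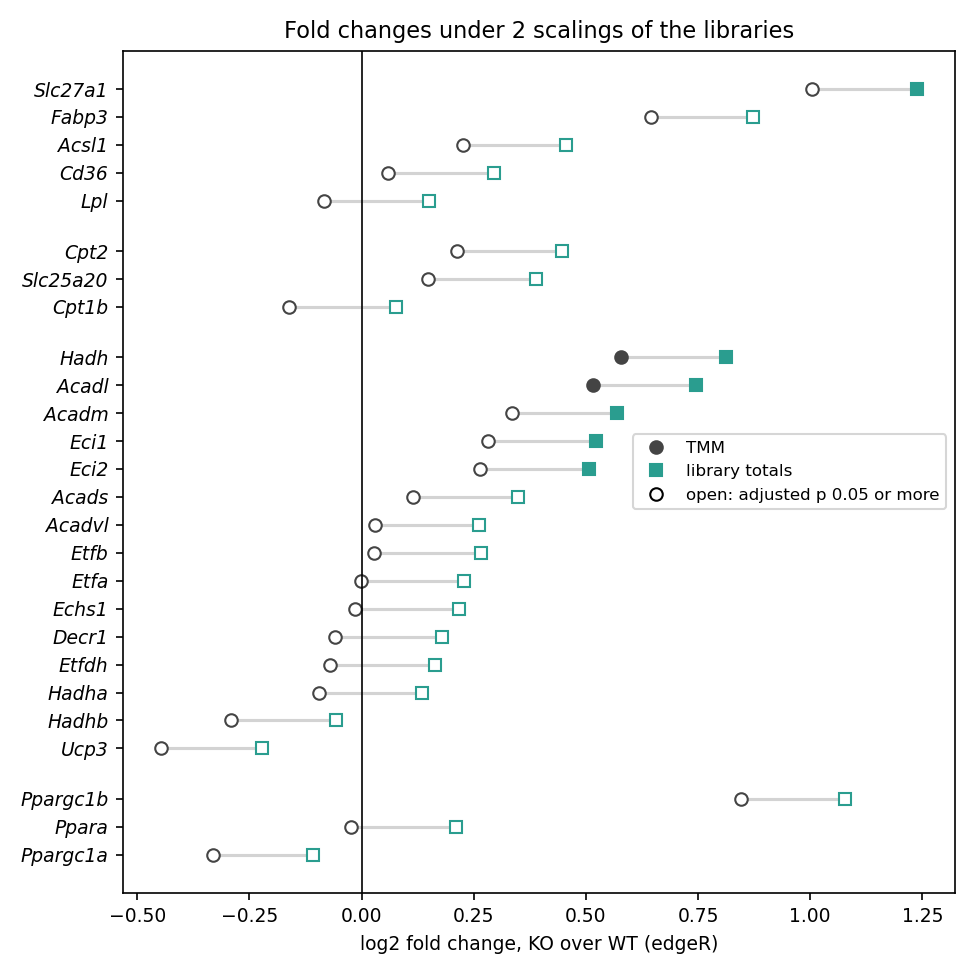
Log2 fold change of the 26 tested members with TMM (circles) and with library totals (squares); filled symbols have an adjusted p under 0.05. Every member shifts up by a similar amount, so that 2 pass with TMM and 6 with library totals, and 8 members cross 0.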

How the data were processed

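Per the labels' protocols, total RNA was extracted with TRIzol and turned into PCR-amplified nanopore cDNA libraries. The submitters' processing notes name minimap2, DESeq2 1.6.3 and GRCm38. The read counter, annotation and strand use were not given in the sources used here. Unnormalized read counts per Ensembl gene were deposited by the authors. The authors' deposited CPM are the same counts over a fixed total per library and served only for that check (listed genes held 95.9 to 96.9% of it).

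The main test was edgeR 4.0.16 (R 4.3.3): filterByExpr over the genotypes (minimum count 10, total 15), TMM, robust quasi-likelihood test, adjusted p under 0.05. Intervals are 95% from the same fit, whose steps were tested on simulated data. Alternatives were DESeq2 size factors, library totals, no filter, 5 CPM in 3 libraries, DESeq2 1.42.0, limma-voom 3.58.1, a slow-fibre score (mean log2 CPM of 11 genes) as a covariate, and each library left out.

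Members, lists and tests were chosen with earlier results of these data known. All 32 members are reported, with every library's value for those that passed, that passed in an alternative, or that are regulators. Genes of the wider lists are named where they passed, or without values to show what a list holds. Rxra, Pdk4, Plin2, Acat1, Tfam, Vldlr, Acad11, Adipoq, Cidec and Elovl3 were named after their values were seen. Positions are from GENCODE M21 (GRCm38). Exons of another annotated gene overlap those of 10 members, on the opposite strand for 8; Hadh, Acadl, Acadm, Slc27a1 and Hadhb have no such overlap. Chi-square over degrees of freedom lay between 2.26 and 6.47 for pairs of replicates. Intervals on counts cover counting error only.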

Additional observations from a re-analysis of the deposited data

How the results depend on the processing

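The calls on fatty acid genes rest on scaling, tool and library. Members called higher in KO (2) numbered 1 with DESeq2 size factors, 6 with library totals, 3 with no filter, 0 with DESeq2 (4 at an unadjusted p under 0.05, against 6 in edgeR), 1 with limma-voom, and 0 to 1 without each library in turn; 0 members were called lower in any fit. Fabp3 is the third with no filter and the 1 without WT replicate 2. Of all tested genes, 6.24% were called in either direction with DESeq2 size factors, 12.0% with library totals and 4.94% with no filter. The share was 4.82% with DESeq2, 5.18% with limma-voom and 3.39 to 5.19% without each library. The same shares apply beside the counts of the wider lists. Genes of the wider lists called higher (1) numbered 5 with library totals, 3 with no filter, 2 with DESeq2 and 1 to 3 without each library; those called lower (2) numbered 1 with DESeq2 and 1 to 2 without each library. Over all genes, 653 were called higher with library totals and 344 with no filter, which also called 362 lower; without each library 83 to 179 were called higher, with 83, 101 and 129 without WT replicates 2, 1 and 3, and 154 to 187 lower.

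Members near 0 changed sign. With library totals the log2 fold changes were 0.15 for Lpl, 0.077 for Cpt1b, 0.13 for Hadha, 0.22 for Echs1, 0.23 for Etfa, 0.16 for Etfdh, 0.18 for Decr1 and 0.21 for Ppara, and with limma-voom 0.00012 for Etfa. Without each library the values ran from -0.016 to 0.080 (Cd36), -0.24 to 0.067 (Lpl), -0.067 to 0.082 (Acadvl), -0.17 to 0.35 (Acads), -0.12 to 0.038 (Echs1), -0.093 to 0.053 (Etfa), -0.071 to 0.093 (Etfb), -0.15 to 0.021 (Etfdh) and -0.64 to 0.41 (Ppara). Of 390 values of tested named genes in the alternatives, 338 kept their direction and side of the threshold. Apart from the shift that library totals give by construction, the cause was not tested. No paired analysis was possible because the titles of the 2 genotypes share only 1 number.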

Other observations

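Of the 26 tested members, WT replicates 1, 2 and 3 held the highest WT level of 4, 16 and 6 and the lowest of 10, 3 and 13. KO replicates 1, 2 and 3 held the highest KO level of 9, 15 and 2 and the lowest of 6, 3 and 17. The mean log2 CPM of the slow-fibre markers was 5.26, 4.84 and 2.22 in the WT libraries, in order, against 4.21, 6.33 and 2.82 in the KO libraries. In WT, replicate 1 had the highest marker level, while the members were most often highest in replicate 2. In KO, replicate 2 was first in both. In each genotype replicate 3 had the lowest marker level and most often the lowest level of the members. Whether fibre type bears on these counts was not tested.

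Of the 65 tested genes of the wider lists, 24.6% had libraries that did not overlap between genotypes, near the 25.8% of all tested genes. These were 8 genes higher in every KO library and 8 lower, and most of them did not pass. Among those higher, chosen after their values were seen, Plin2, which coats lipid droplets, had 46.7, 40.9 and 31.5 CPM in WT and 131, 69.3 and 55.6 CPM in KO (edgeR adjusted p = 0.0986). Acat1, a mitochondrial thiolase, had 217, 269 and 222 CPM in WT and 303, 331 and 281 CPM in KO (edgeR adjusted p = 0.103). Among those lower, chosen likewise, Tfam, a factor of mitochondrial DNA transcription, had 30.6 ± 4.25 CPM in WT against 18.2 ± 4.003 in KO (edgeR adjusted p = 0.0719). Vldlr, a lipoprotein receptor, had 23.9 ± 3.55 against 15.4 ± 0.693 CPM (edgeR adjusted p = 0.128), and Acad11, an acyl-CoA dehydrogenase, 37.7 ± 1.03 against 26.3 ± 2.07 CPM (edgeR adjusted p = 0.143).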
